A study of Bos taurus and other sequences with 9 samples.

Results

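The vascular miRNAs miR-126, miR-143 and miR-145 were followed through culture media made with fetal bovine serum (FBS), with FBS depleted of extracellular vesicles (EVs), or without serum. They stand in the small RNA sequencing table as 4 mature miRNAs, hsa-miR-126-3p, hsa-miR-126-5p, hsa-miR-143-3p and hsa-miR-145-5p, out of 425 miRNAs listed. They were picked by name, with earlier results of these data known, and all 4 names were found. The names are those of human miRNAs, while the sera are bovine, so a count is a read, with copies of 1 molecule merged where its index allowed, that matched a human mature sequence or a human miRNA locus.

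RNA isolated with an EV kit from 9 samples of 5 media was sequenced, without a measurement of how much of it was inside EVs, with 2 samples of each FBS-based medium (FBS itself and the depleted sera SBI-dFBS, UC-dFBS and UF-dFBS) and 1 sample of StemPRO. FBS-1 was serum from Sigma-Aldrich and FBS-2 serum from Gibco, both untreated. UC-dFBS was the supernatant left after ultracentrifugation and UF-dFBS the flow-through of an ultrafiltration device, each prepared from the same Sigma serum (sample 1) and the same Gibco serum (sample 2). SBI-dFBS was exosome-depleted serum bought from System Biosciences, in 2 lots that share no serum with the other samples. All 8 of these media contained the basal medium DMEM/F12 with serum and penicillin-streptomycin, whereas StemPRO was a defined serum-free medium from Gibco for mesenchymal stem cells, whose 1 sample has no replicate. Since the samples of a medium differ by serum or lot and each was prepared once, the SD holds the difference between sera or lots. So do the p-values between media, other than where the serum was fitted as a replicate block. Preparation error was not measured separately.

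A miRNA is cut from a hairpin precursor whose 5p and 3p arms can each give a mature miRNA that guides repression of messenger RNAs. miR-126 is encoded in an intron of EGFL7, is known from endothelial cells and platelets, and its 3p arm represses SPRED1 and PIK3R2, inhibitors of the signalling that follows VEGF. miR-143 and miR-145 are transcribed together, are abundant in vascular smooth muscle, and are known for maintaining its contractile state, with KLF4 among the targets of miR-145. In the RefSeq annotation of cattle (ARS-UCD2.0), whose coordinates were not used, MIR126 lies within EGFL7, and MIR143 and MIR145 are next to each other within 1 long non-coding RNA gene, LOC132345768.

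Sequencing gave between 937 and 203755 miRNA counts per sample, with the lowest totals in UF-dFBS (4204 and 937) and StemPRO (1438). Levels are given as spike-in normalized counts, which are counts divided by 1 factor per sample, derived from RNAs of known amount added to each sample. The lowest level that a count of 3 allows, used here as the floor for a miRNA with 0 counts, was 0.0543 and 0.125 spike-in normalized counts in UF-dFBS-1 and UF-dFBS-2, 0.0278 in StemPRO, and between 0.332 and 0.794 in the other 6 samples. Intervals and floors cover counting error only, and shares between miRNAs are shares of reads, since the capture efficiency of each miRNA was not measured.

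In untreated FBS both arms of miR-126 and miR-143-3p were abundant, and miR-145-5p was not. In FBS-1 the level of miR-126-3p was 2116 spike-in normalized counts, with 1196 for FBS-2, a mean of 1656 ± 650.4 (SD, n = 2), and it ranked 4 of 425 miRNAs in both samples. For miR-126-5p FBS-1 had 278 and FBS-2 had 181. The level of miR-143-3p was 1313 and 431 (872 ± 624, SD, n = 2), with ranks of 7 and 8. Its cluster partner miR-145-5p had 25.2 and 9.12 (17.2 ± 11.4, SD, n = 2), with ranks of 66 and 87. All 4 miRNAs were higher in the Sigma serum than in the Gibco serum. Together they made up 8.87% and 10.9% of the miRNA counts of FBS, while the liver miRNA miR-122-5p, the most abundant miRNA of both samples, made up 46.1% and 28.9%.

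**Figure D1:**
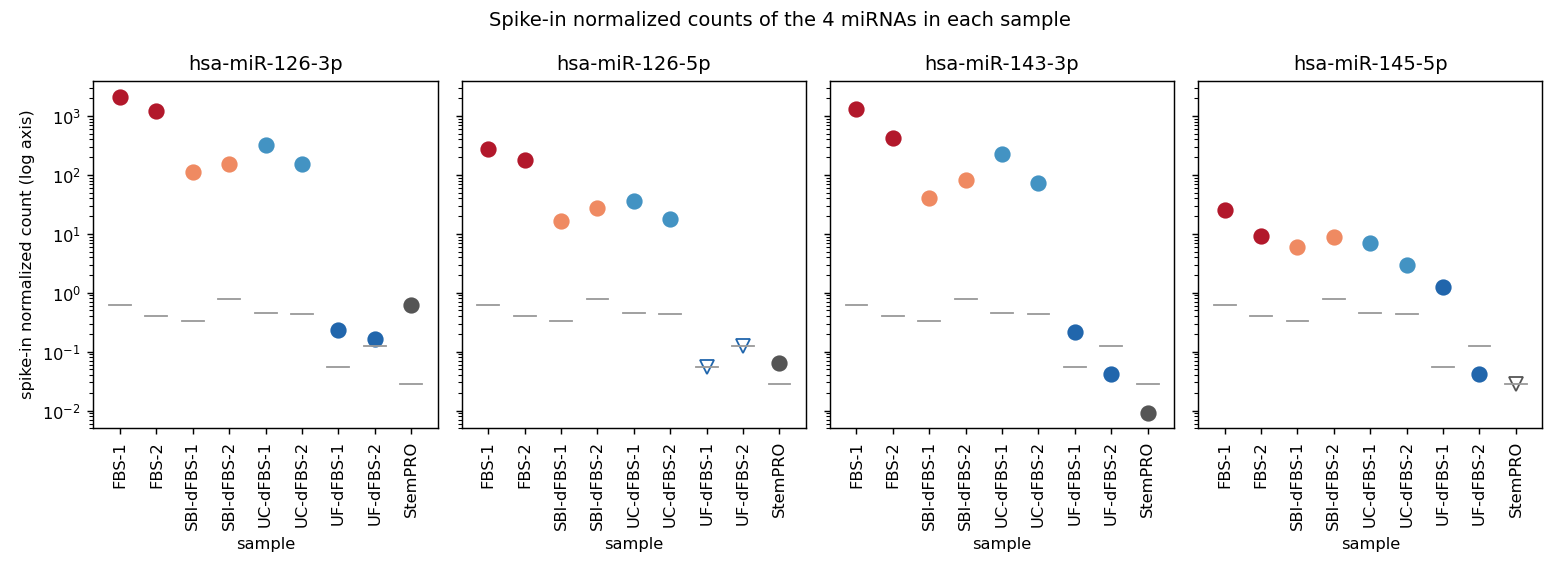
Spike-in normalized counts (log axis) of the 4 miRNAs in each of the 9 samples, coloured by medium. Grey lines mark the level of 3 counts in that sample, and open triangles at that line stand for 0 counts. miR-126-3p, miR-126-5p and miR-143-3p fall by orders of magnitude in UF-dFBS, while miR-145-5p stays at 1.23 in UF-dFBS-1.

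The other arms of the miR-143 and miR-145 hairpins were scarce. miR-143-5p had 6 and 8 counts in FBS, miR-145-3p had 12 and 9, and neither had more than 8 counts in any depleted sample or any count in UF-dFBS or StemPRO. These levels are near or under the floor outside FBS, so no fold change is given for them.

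In the commercial SBI-dFBS both arms of miR-126 and miR-143-3p were lower than in FBS by more than most other miRNAs, and miR-145-5p did not pass the test. No untreated serum of these lots was sequenced, so depletion and serum source cannot be told apart here. The level of miR-126-3p was 111 and 155 spike-in normalized counts in the 2 lots, 8.02% of the FBS mean. For miR-126-5p it was 16.4 and 27.5, or 9.56% of the FBS mean. For miR-143-3p it was 40.6 and 81.0, or 6.97%. For these 3 miRNAs every SBI-dFBS sample lay below both FBS samples. For miR-145-5p the level was 5.86 and 8.74, also below both FBS samples, but it was still 42.5% of the FBS mean.

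On the spike-in scale, edgeR's quasi-likelihood test with Benjamini-Hochberg adjustment over 163 miRNAs called 3 of the 4 lower in SBI-dFBS, where 44.2% of all miRNAs tested were called lower. The log2 change was -3.64 for miR-126-3p (SE 0.94, adjusted p = 0.00113), -3.39 for miR-126-5p (SE 0.68, adjusted p = 2.12e-05) and -3.84 for miR-143-3p (SE 0.85, adjusted p = 0.000115). The median over all miRNAs tested was -1.70, and miR-143-3p had the change ranked 13 of 163 from the largest fall. For miR-145-5p the log2 change was -1.24 (SE 0.72, adjusted p = 0.135), with a 95% interval from -2.64 to 0.17, and relative to the other miRNAs its sign was positive, also without a call. Without SBI-dFBS-1 miR-126-3p and miR-143-3p were no longer called (edgeR adjusted p = 0.0743 and 0.0537), with changes of -3.42 and -3.43.

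Ultracentrifugation lowered all 4 miRNAs, to between 11.7% and 28.6% of the FBS mean. The level of miR-126-3p was 320.0 spike-in normalized counts in UC-dFBS-1 and 155 in UC-dFBS-2, a mean of 14.3% of FBS. For miR-126-5p it was 35.8 and 18.0, a mean of 11.7% of FBS. For miR-143-3p it was 227 and 71.8, a mean of 17.2%. For miR-145-5p it was 6.88 and 2.93, a mean of 28.6%. No UC-dFBS sample reached the lowest FBS sample for any of the 4.

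Because sample 1 and sample 2 share their serum with FBS-1 and FBS-2, the part left after ultracentrifugation can be read within each serum. For miR-126-3p it was 15.1% in the Sigma serum (95% counting interval 14.4% to 15.9%) and 13.0% in the Gibco serum (12.2% to 13.8%). For miR-126-5p it was 12.9% and 9.96%, and for miR-143-3p it was 17.3% and 16.7%. For all miRNAs together it was 18.5% and 23.1%, above these 3 miRNAs in both sera. For miR-122-5p, the most abundant miRNA in that total, it was 23.9% and 43.6%. For miR-145-5p 27.3% (19.0% to 38.8%) was left in the Sigma serum and 32.1% (18.5% to 53.6%) in the Gibco serum.

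All 4 were called lower in UC-dFBS than in FBS by edgeR on the spike-in scale, as were 90.8% of all miRNAs tested. The log2 changes were -2.80 for miR-126-3p (SE 0.91), -3.09 for miR-126-5p (SE 0.67), -2.54 for miR-143-3p (SE 0.80) and -1.80 for miR-145-5p (SE 0.73), with edgeR adjusted p-values of 0.00377, 6.14e-05, 0.003004 and 0.0181. The median of all miRNAs was -2.70, and the fall of miR-145-5p ranked 146 of 163. With the serum as a replicate block all 4 were again called, as were 154 of all miRNAs tested. The changes were then -2.56 for miR-143-3p (SE 0.41, edgeR adjusted p = 2.78e-09) and -1.80 for miR-145-5p (SE 0.44, edgeR adjusted p = 9.22e-05). The fits below that leave out 1 sample have no such block, so each also shifts the balance of the sera compared. Relative to the other miRNAs the signs of miR-143-3p and miR-145-5p turned positive, without a call, as given below. Without FBS-1 the calls of miR-143-3p and miR-145-5p were lost (edgeR adjusted p = 0.0935 and 0.364), and the change of miR-145-5p was -0.89. Without UC-dFBS-2 the call held only for miR-126-5p, and the edgeR adjusted p was 0.0847 for miR-126-3p, 0.102 for miR-143-3p and 0.209 for miR-145-5p.

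On the spike-in scale no difference between UC-dFBS and SBI-dFBS passed the test for these miRNAs, while relative to the other miRNAs miR-126-3p and miR-143-3p were called higher in UC-dFBS. The samples of both media overlapped for miR-126-5p, miR-143-3p and miR-145-5p. For miR-126-3p UC-dFBS-2 and SBI-dFBS-2 both had 155 spike-in normalized counts. By edgeR with the spike-in factors 0 of the 4 were called in either direction, against 12.3% of all miRNAs tested. An unadjusted p under 0.05 was reached by 0 of the 4, DESeq2 with spike-in size factors called 0, and DESeq2 with its own size factors called 2. With TMM factors edgeR called the same 2, miR-126-3p at 1.60 and miR-143-3p at 2.02 (adjusted p = 0.0238 for each). With the spike-in factors the log2 difference UC-dFBS minus SBI-dFBS was 0.84 for miR-126-3p (95% interval -0.84 to 2.52), 0.30 for miR-126-5p (-0.94 to 1.54), 1.30 for miR-143-3p (-0.21 to 2.82) and -0.56 for miR-145-5p (-1.98 to 0.86).

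Ultrafiltration removed almost all of miR-126 and miR-143-3p, and less of miR-145-5p. The counts of miR-126-3p were 13 in UF-dFBS-1 and 4 in UF-dFBS-2, or 0.235 and 0.167 spike-in normalized counts, a mean of 0.0121% of FBS. Both UF-dFBS samples had 0 counts of miR-126-5p, which allows up to 0.071% and 0.320% of their miRNA counts. Against the floor of 3 counts per library, miR-126-5p was at least 2563-fold lower than in FBS. miR-143-3p had 12 counts and 1 count, or 0.217 and 0.0416 spike-in normalized counts, a mean of 0.0148% of FBS. miR-145-5p had 68 counts in UF-dFBS-1 and 1 in UF-dFBS-2, or 1.23 and 0.0416 spike-in normalized counts, a mean of 3.71% of FBS.

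UF-dFBS samples lay below all samples of the other 3 FBS-based media for each of the 4 miRNAs. In the Sigma serum 0.0111% of miR-126-3p (95% counting interval 0.00592% to 0.0190%) and 0.0165% of miR-143-3p (0.00855% to 0.0289%) were left, against 0.181% of all miRNAs together. In the Gibco serum 0.0139% of miR-126-3p (0.00379% to 0.0357%) and 0.00967% of miR-143-3p (0.000245% to 0.0539%) were left, against 0.234% of all miRNAs. Of miR-122-5p, the most abundant miRNA in these totals, 0.237% was left in the Sigma serum and 0.336% in the Gibco serum. For miR-145-5p the part left was 4.89% in the Sigma serum (3.58% to 6.63%) and 0.456% in the Gibco serum (0.0114% to 2.63%), and these intervals do not overlap. The latter rests on 1 count.

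All 4 were called lower in UF-dFBS than in FBS by edgeR on the spike-in scale, as were 98.2% of all miRNAs tested. The log2 change was -12.91 for miR-126-3p (SE 1.40, edgeR adjusted p = 1.44e-18) and -12.46 for miR-143-3p (SE 1.24, edgeR adjusted p = 1.77e-21). These are the changes ranked 3 and 4 of 163 from the largest fall, beside a median of -8.67. In the fit relative to the other miRNAs, given below, their changes ranked 45 and 47 of 163, so the place depends on the scaling. For miR-126-5p, at 0 counts in both samples, the bound above stands in place of a fitted change. For miR-145-5p the log2 change was -4.65 (SE 0.81, edgeR adjusted p = 1.58e-08), and 154 of the 163 miRNAs fell more, so that relative to the other miRNAs its direction was the opposite, as given below. Its size depended on UF-dFBS-1, without which it was -8.26, while without UF-dFBS-2 it was -3.78. All 4 stayed called in every fit that left out 1 sample, and against UC-dFBS all 4 were called lower in UF-dFBS too, as were 93.9% of all miRNAs tested.

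**Figure D2:**
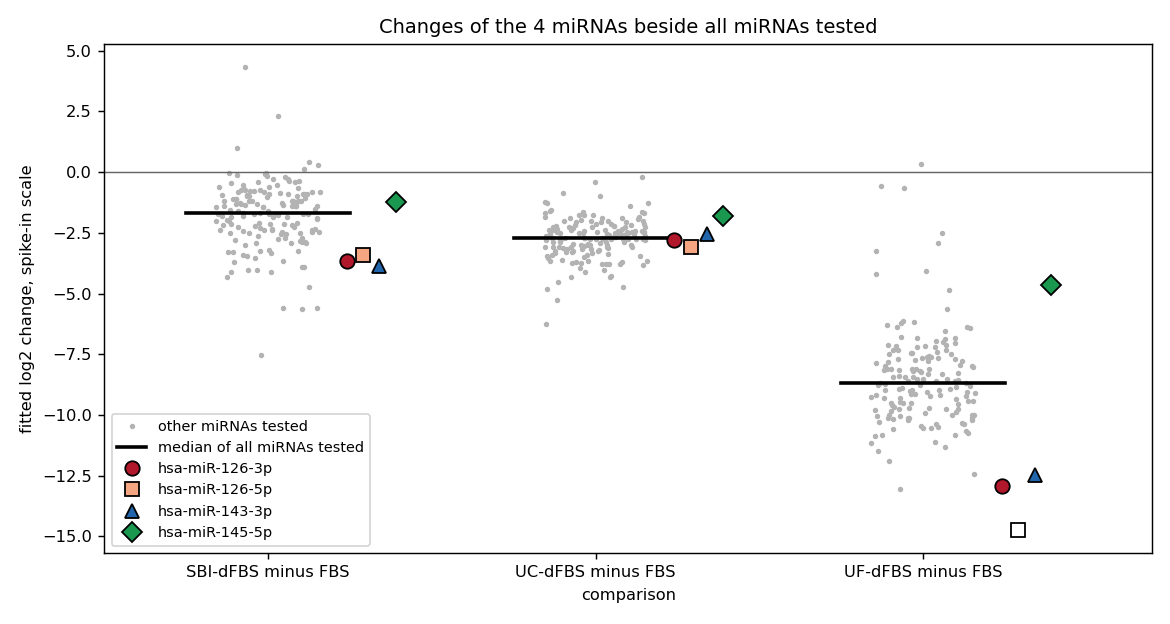
Fitted log2 changes on the spike-in scale (vertical axis) of SBI-dFBS, UC-dFBS and UF-dFBS minus FBS, for the 4 miRNAs (large symbols), the other miRNAs of the 163 tested (grey points) and their median (black line). The open square is miR-126-5p, whose fitted value at 0 counts depends on the prior count of the fit. In UF-dFBS miR-126-3p and miR-143-3p stand at -12.91 and -12.46, below the median of -8.67. miR-145-5p stands at -4.65 on this scale, above the median and so higher relative to the other miRNAs. This rests on UF-dFBS-1, with 68 counts against 1 in UF-dFBS-2, and without UF-dFBS-1 its change relative to the other miRNAs was 0.08.

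To see whether these miRNAs kept their place among the miRNAs while the total fell, their shares were compared. miR-126-3p made up 5.03% and 7.17% of the miRNA counts of FBS, 4.12% and 4.03% after ultracentrifugation, 1.16% and 0.954% in the SBI-dFBS lots, and 0.309% and 0.427% after ultrafiltration. It held rank 4 in FBS and UC-dFBS, ranks 9 and 10 in SBI-dFBS, and ranks 32 and 26 in UF-dFBS. The share of miR-143-3p was 3.12% and 2.58% in FBS, 2.93% and 1.86% after ultracentrifugation, 0.423% and 0.499% in the SBI-dFBS lots, and 0.285% and 0.107% after ultrafiltration. Both miRNAs thus took a smaller share of reads in SBI-dFBS and UF-dFBS than in any FBS or UC-dFBS sample. In SBI-dFBS the share of miR-122-5p was 68.0% and 73.4%, above its share in FBS.

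The share of miR-145-5p lay between 0.0538% and 0.0886% in the FBS, SBI-dFBS and UC-dFBS samples. In UF-dFBS-1 it was 1.62% (Wilson 95% interval 1.28% to 2.05%), which made miR-145-5p the miRNA of rank 4 in that sample. In UF-dFBS-2 it was 0.107% (0.0188% to 0.602%), an interval that holds the shares of all the FBS, SBI-dFBS and UC-dFBS samples.

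**Figure D3:**
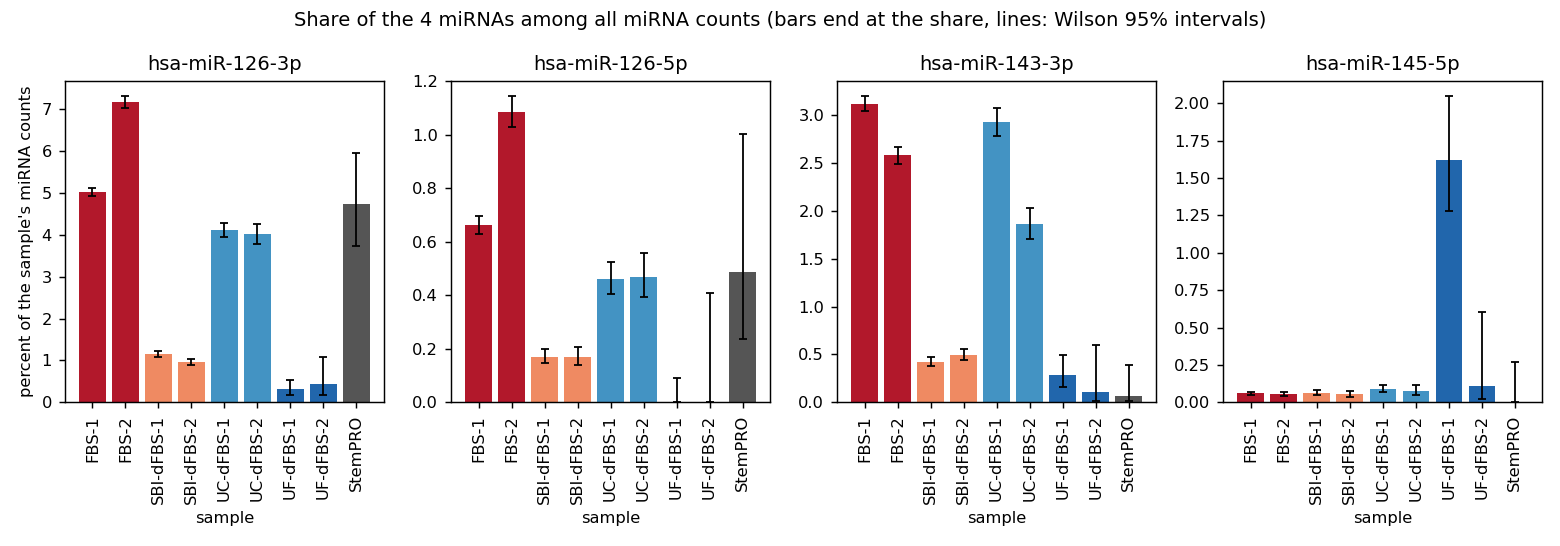
Percent of each sample's miRNA counts taken by the 4 miRNAs, with Wilson 95% intervals as lines and a separate vertical axis for each miRNA. miR-126-3p, miR-126-5p and miR-143-3p have low bars in SBI-dFBS and UF-dFBS, and miR-145-5p has 1 high bar, at 1.62% in UF-dFBS-1.

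Tested relative to the other miRNAs (edgeR with TMM factors, which set most miRNAs to no change), 2 of the 4 were called lower in SBI-dFBS than in FBS, where 4.29% of all miRNAs tested were called lower. The log2 change was -1.81 for miR-126-3p (SE 0.43, edgeR adjusted p = 0.0153), -1.92 for miR-143-3p (SE 0.53, edgeR adjusted p = 0.0340) and -1.61 for miR-126-5p (SE 0.49, edgeR adjusted p = 0.0533), and that of miR-145-5p was 0.68 (SE 0.73, edgeR adjusted p = 0.547), beside a median of 0.21. Scaling by total miRNA counts, and DESeq2 with its own size factors, called 3 of the 4. Total miRNA counts less miR-122-5p called only miR-126-3p, at -1.43 (edgeR adjusted p = 0.0405), while miR-143-3p was at -1.56 (edgeR adjusted p = 0.0558). The call of miR-126-3p was lost without FBS-2, SBI-dFBS-1, SBI-dFBS-2 or UC-dFBS-1, with changes from -1.88 to -1.75 and edgeR adjusted p-values up to 0.153. That of miR-143-3p was lost without FBS-1, SBI-dFBS-1, SBI-dFBS-2 or UC-dFBS-1, with changes from -2.28 to -1.63 and values up to 0.240. miR-126-5p was called without UC-dFBS-2, UF-dFBS-1 or UF-dFBS-2.

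In UC-dFBS 0 of the 4 were called relative to the other miRNAs, 0 had an unadjusted p under 0.05, and DESeq2 called 0. Of all miRNAs tested 0% were called by edgeR, 9 of 163 had an unadjusted p under 0.05, and DESeq2 with its own size factors called 2. With the serum as a replicate block edgeR called 11 of all miRNAs, again with 0 of the 4. The log2 changes were -0.21 for miR-126-3p (95% interval -1.04 to 0.61), -0.53 for miR-126-5p (-1.47 to 0.41), 0.10 for miR-143-3p (-0.91 to 1.10) and 0.87 for miR-145-5p (-0.58 to 2.31).

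In UF-dFBS 3 of the 4 were called lower relative to the other miRNAs and 1 higher, where 6.13% of all miRNAs tested were called lower and 7.36% higher. With the serum as a replicate block the calls over all miRNAs were 34 in place of 22, and the 4 kept their calls and directions. The log2 change was -4.13 for miR-126-3p (SE 0.52, edgeR adjusted p = 1.57e-05) and -3.58 for miR-143-3p (SE 0.64, edgeR adjusted p = 0.000460), beside a median of -0.59. miR-126-5p was also called lower, at 0 counts in UF-dFBS. For miR-145-5p the change was 4.23 (SE 0.82, edgeR adjusted p = 0.000843), higher in UF-dFBS. This rise rested on UF-dFBS-1: without that sample it was 0.08 with an edgeR adjusted p of 0.985. The calls of miR-126-3p and miR-143-3p held in each fit that left out 1 sample.

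The arms of miR-126 were in a like ratio in FBS, UC-dFBS, SBI-dFBS and StemPRO, and UF-dFBS had too few counts to tell. The 3p arm took 88.4% and 86.9% of the counts of both arms in FBS, 89.9% and 89.6% after ultracentrifugation, 87.1% and 84.9% in the SBI-dFBS lots, and 90.7% in StemPRO (Wilson 95% interval 82.0% to 95.4%, 75 counts). In UF-dFBS all 13 and all 4 counts of miR-126 were from the 3p arm, and the intervals, from 77.2% and from 51.0% upward, hold the shares of all other samples. The mean share in UF-dFBS was 12.2 percentage points above that of the 6 other FBS-based samples. An exact two-sided permutation test on the logit of the share gave p = 0.071, the smallest that 2 samples against 6 can give. The logit of UF-dFBS-2, 2.197 beside 2.189 in UC-dFBS-1, was set by the constant added to each count. The test therefore cannot tell whether the arm ratio differed in UF-dFBS.

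The pair of miR-143-3p and miR-145-5p, which come from 1 transcript, ranged from mostly miR-143-3p in FBS to mostly miR-145-5p in UF-dFBS-1. miR-143-3p took 98.1% and 97.9% of the counts of the pair in FBS and 97.1% and 96.1% in UC-dFBS. In SBI-dFBS it took 87.4% (Wilson 95% interval 83.9% to 90.2%) and 90.3% (86.6% to 93.0%), below every FBS and UC-dFBS sample. In UF-dFBS-1 it took 15.0% (8.79% to 24.4%) of 80 counts. UF-dFBS-2 had 1 count of each, a share of 50% with an interval from 9.45% to 90.5%. The difference between UF-dFBS and the 6 other FBS-based samples was -62.0 percentage points (exact two-sided permutation p = 0.071, again the smallest possible). The 6 depleted samples all lay below both FBS samples, with the same smallest p, in a comparison added after the data were seen.

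**Figure D4:**
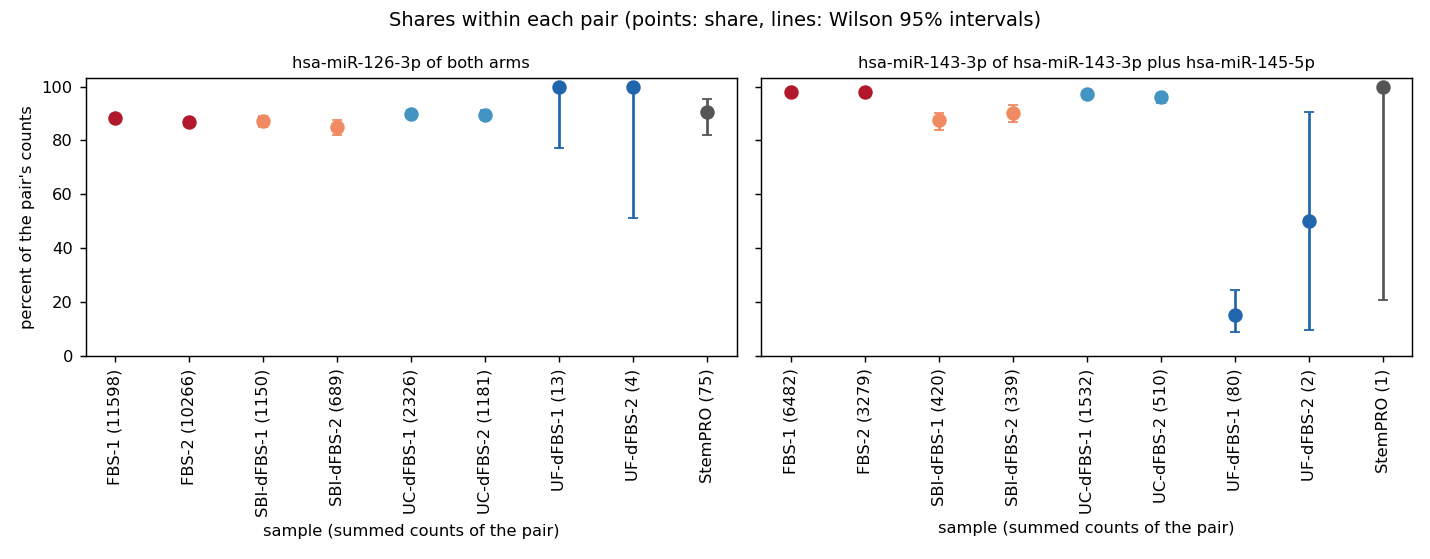
Percent of miR-126 counts from the 3p arm (left) and percent of the summed counts of miR-143-3p and miR-145-5p that are miR-143-3p (right), per sample, with Wilson 95% intervals and the summed counts of the pair in brackets. The left panel stays between 84.9% and 100%, and the right panel drops to 15.0% in UF-dFBS-1.

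StemPRO held reads of miR-126 but almost none of miR-143 or miR-145. It had 68 counts of miR-126-3p and 7 of miR-126-5p, or 0.629 and 0.0648 spike-in normalized counts, both above the floor of 3 counts. Only 1 count of miR-143-3p and 0 of miR-145-5p were found, the latter of which allows up to 0.209% of the miRNA counts. miR-126-3p made up 4.73% of the miRNA counts of StemPRO (Wilson 95% interval 3.75% to 5.95%), rank 3 after miR-203a and miR-16-5p, a share below that of both FBS samples, with an interval that reaches the 5.03% of FBS-1. miR-122-5p, the leading miRNA of each FBS-based sample, took 0.487% in StemPRO, against at least 28.9% in those samples. The paper found less overlap with bovine miRNAs in StemPRO than in the other media. It proposes that a larger part of the StemPRO reads may be experimental noise, and that miR-203a could be an artifact. Whether this holds for the miR-126 reads was not tested.

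On the spike-in scale, miR-126-3p in StemPRO was 0.0380% of the FBS mean. It was 2.67-fold the level in UF-dFBS-1 (95% counting interval 1.46 to 5.28) and 3.78-fold that in UF-dFBS-2 (1.41 to 14.3), although all miRNAs together were at 17.5% and 34.1% of those samples. With 1 sample of StemPRO these ratios compare libraries and have no test. miR-126-3p was 98.6% of the 69 counts of miR-126-3p and miR-143-3p in StemPRO, against 58.5% to 73.5% in the FBS, SBI-dFBS and UC-dFBS samples.

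Among the 5 media, the order of mean levels, from the highest, was FBS, UC-dFBS, SBI-dFBS, StemPRO and UF-dFBS for both arms of miR-126. It was FBS, UC-dFBS, SBI-dFBS, UF-dFBS and StemPRO for miR-143-3p, and FBS, SBI-dFBS, UC-dFBS, UF-dFBS and StemPRO for miR-145-5p. The neighbours UC-dFBS and SBI-dFBS overlapped for miR-126-5p, miR-143-3p and miR-145-5p. In StemPRO and UF-dFBS-2, miR-143-3p was at 1 count, so that their order for this miRNA is not resolved by these counts. Nor is that of StemPRO and UF-dFBS for miR-126-5p, as the level of 0.0648 in StemPRO lies between the floors of both UF-dFBS samples, which had 0 counts.

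The Sigma serum held more of these miRNAs than the Gibco serum, before and after ultracentrifugation. In FBS the ratio of Sigma to Gibco was 1.77 for miR-126-3p (95% counting interval 1.72 to 1.82), 1.54 for miR-126-5p (1.42 to 1.66), 3.05 for miR-143-3p (2.92 to 3.18) and 2.76 for miR-145-5p (2.04 to 3.77), while for all miRNAs together it was 2.52. In UC-dFBS the same ratios were 2.06, 1.99, 3.17 and 2.35, beside 2.02 for all miRNAs. miR-143-3p thus stood above the total in both media. In UF-dFBS the ratio for miR-145-5p was 29.6, from 68 counts against 1 (95% counting interval 5.13 to 1185), and for miR-126-3p it was 1.41 (0.437 to 5.95).

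**Figure D5:**
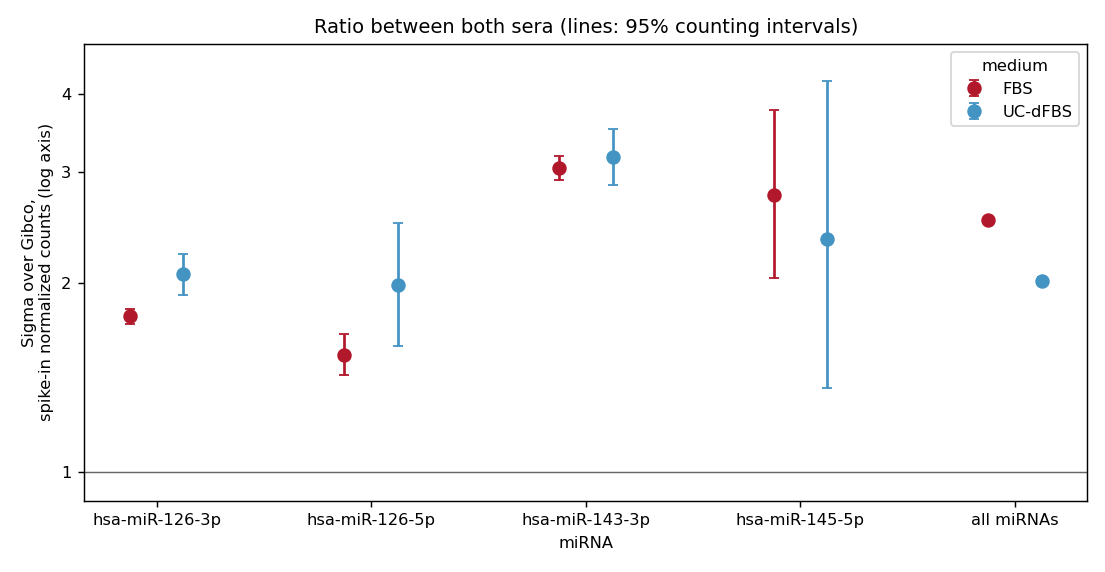
Ratio of Sigma to Gibco serum in spike-in normalized counts (log axis) for the 4 miRNAs and for all miRNAs together, in FBS and UC-dFBS, with 95% counting intervals. All 10 ratios are above 1, and miR-143-3p is near 3 in both media.

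Over the 6 samples of FBS, UC-dFBS and UF-dFBS, with the medium as a term, edgeR called 3 of the 4 higher in the Sigma serum, where 35.2% of the 105 miRNAs tested were called higher. The samples of a supplier were all made from the same serum. The p-values of this fit therefore do not measure how sera of a supplier vary, and the result covers these sera only. The log2 difference Sigma minus Gibco was 1.67 for miR-143-3p (SE 0.39, edgeR adjusted p = 0.000677), 1.77 for miR-145-5p (SE 0.37, edgeR adjusted p = 0.000170), 0.79 for miR-126-5p (SE 0.30, edgeR adjusted p = 0.0344) and 0.88 for miR-126-3p (SE 0.38, edgeR adjusted p = 0.0595), beside a median of 0.62. The call of miR-126-5p was lost with TMM factors (0.02, edgeR adjusted p = 0.977), with DESeq2 on either scaling, without a filter and with the stricter filter. Without any one of FBS-1, FBS-2, UC-dFBS-1 or UC-dFBS-2 none of the 4 was called by edgeR (adjusted p of 0.159 or more for the 3), with differences from 1.71 to 1.77 for miR-143-3p, 2.23 to 2.34 for miR-145-5p and 0.61 to 0.97 for miR-126-5p.

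Next, the miRNAs whose pattern over the 8 FBS-based samples was most like each of the 4 were taken among the 163 tested, by Pearson's r of log2 spike-in normalized counts with a pseudocount of 0.1. As all miRNAs fell together in UF-dFBS, high values are the rule, and the median r with the other 162 miRNAs was 0.949 for miR-126-3p. The nearest to miR-126-3p were miR-126-5p (r = 0.998), let-7a-5p (0.996) and let-7b-5p (0.996). miR-126-5p was nearest to let-7a-5p (0.999), and its own 3p arm came at place 2. miR-143-3p was nearest to miR-126-3p (0.996), miR-126-5p (0.993) and let-7e-5p (0.992). Its cluster partner miR-145-5p came at place 98 of 162, with r = 0.923, at place 56 with a pseudocount of 0.5 and at place 14 by Spearman's rho. miR-145-5p was nearest to miR-101-3p (0.957), miR-194-5p (0.95) and miR-142-5p (0.946), and miR-143-3p came at place 21. These values are over 8 samples, share the depth of each library and carry no test. On shares of miRNA counts, which take out the common fall, the arms of miR-126 kept r = 0.961, whereas miR-143-3p and miR-145-5p had r = -0.503. The share of miR-145-5p was 1.62% in UF-dFBS-1 and at most 0.107% in the other FBS-based samples, and r without UF-dFBS-1 was not computed. miR-126-5p had 0 counts in both UF-dFBS samples, so its shares there were set by the constant added to each count.

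A list of 20 other miRNAs known from endothelial or smooth muscle cells, such as miR-21-5p, miR-10b-5p and miR-155-5p, was set beside the 4, and 14 of them had enough counts to be tested. On the spike-in scale edgeR called 8 of the 14 lower in SBI-dFBS, and 14 of 14 after either laboratory depletion, against shares over all miRNAs tested of 44.2% (SBI-dFBS), 90.8% (UC-dFBS) and 98.2% (UF-dFBS). Their median log2 change was -1.75 (SBI-dFBS), -2.46 (UC-dFBS) and -8.67 (UF-dFBS), against -1.70, -2.70 and -8.67 over all miRNAs. Relative to the other miRNAs edgeR called 1 of the 14 lower in SBI-dFBS, and in UF-dFBS it called 2 higher and 0 lower, with a median of 0.07. In the comparison of sera 3 of 12 were called higher in the Sigma serum, against 35.2% of all miRNAs tested. The most abundant in FBS were miR-21-5p, a miRNA expressed in most tissues, with a mean of 554 spike-in normalized counts, miR-199a-3p with 224 and miR-10b-5p, which lies in a HOX gene cluster, with 60.9. In UF-dFBS they changed by -9.14 (SE 1.03), -9.34 (SE 0.92) and -10.03 (SE 0.92) on the log2 scale, each less than miR-126-3p.

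The list members with the smallest fall in UF-dFBS were miR-31-5p, with a log2 change of -3.24 (SE 1.10, edgeR adjusted p = 0.00325), and miR-100-5p, with -4.21 (SE 0.88, edgeR adjusted p = 2.53e-06). Like miR-145-5p, both had nearly all of their UF-dFBS counts in UF-dFBS-1, with 15 counts against 0 for miR-31-5p and 46 against 0 for miR-100-5p. These are the 2 members of the list that were called higher in UF-dFBS relative to the other miRNAs. On shares of miRNA counts the miRNAs nearest to miR-145-5p were miR-100-5p (r = 0.900), miR-31-5p (0.871) and miR-203a (0.815). The UF-dFBS-1 counts by which miR-100-5p and miR-31-5p were picked also enter these values, so the correlations are no separate support.

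miRNAs of other sources of serum RNA moved between the media as well. The summed level of 4 miRNAs of white cells and platelets (miR-223-3p, miR-142-3p, miR-142-5p and miR-150-5p) ranged from 1167 to 3671 spike-in normalized counts in FBS, 137 to 311 after ultracentrifugation, 166 to 630 in the SBI-dFBS lots, 0.791 to 1.09 after ultrafiltration and was 0.731 in StemPRO, where 4 of 4 were above 0. For 4 miRNAs of red cells the range was 245 to 286 in FBS, 15.5 to 19.3 after ultracentrifugation, 131 to 176 in the SBI-dFBS lots, 0.634 to 0.916 after ultrafiltration, and the level was 0.296 in StemPRO. Liver miRNAs, 3 in number, took 29.0% to 73.7% of the miRNA counts in the FBS-based samples and 0.765% in StemPRO. Of this, miR-122-5p alone took 28.9% to 73.4% in the FBS-based samples and 0.487% in StemPRO. For 4 muscle miRNAs the summed level was 57.9 in SBI-dFBS-1, at most 3.09 in the other samples and 0 in StemPRO. Only miR-133a-3p among these had enough counts to be tested between media, so the sum is no measure of the muscle miRNAs as a set. The part of these sources in the levels of the vascular miRNAs was not tested.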

How the data were processed

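Small RNA was sequenced from 9 culture media samples. Per the labels and the study's methods, the authors isolated RNA with an EV membrane kit, prepared libraries with unique molecular indices, trimmed reads with cutadapt 1.11, aligned them with Bowtie2 2.2.2, matched them perfectly to mature miRBase sequences, added reads at miRNA loci of the human genome (GRCh37), and deposited UMI-corrected counts per miRNA. The deposited spike-in normalized signal is the count divided by 1 factor per sample, from a linear fit to the spike-ins, whose reads were not used here; within a sample the ratio of count to signal varied by at most 1.98e-06 percent. Files of other small RNAs gave only total counts.

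The members and lists were chosen with earlier results of these data known. Samples were grouped by label. Changes were tested across miRNAs by the quasi-likelihood test of edgeR 4.0.16 (R 4.3.3), adjusted after Benjamini-Hochberg (threshold 0.05), with the spike-in factors as library sizes or, for changes relative to other miRNAs, TMM. The media fit held 8 samples and the 163 of 425 miRNAs that reached 10 counts in 2 or more samples, and all 4 members passed this filter. The sera fit held 6 samples and 105 miRNAs that reached 10 counts in 3 or more. The SE of an edgeR log2 change is its absolute size divided by the square root of the F of the test. The 95% intervals of log2 changes are normal intervals from that SE. As the F test has limited degrees of freedom, these intervals can be too narrow. Both fits were run with spike-in library sizes on simulated data that did not hold the common fall in UF-dFBS. This run therefore does not vouch for the calls in UF-dFBS, and the TMM fit was not simulated. Shares have Wilson intervals, ratios of counts exact intervals, both at 95%, and pair shares were compared by exact permutation in scipy 1.17.1, python 3.11.15. Alternatives were DESeq2 1.42.0, other library sizes, filters and samples. miRNAs besides the members were named by rule: the other arms, from a vessel list the 3 highest in FBS and the 2 with the smallest fall in UF-dFBS, the 3 nearest in pattern to each member, and the leading miRNAs of FBS and StemPRO.

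The numbers 1 and 2 pair FBS, UC-dFBS and UF-dFBS, since the labels name the supplier and the methods state that both depleted sera were prepared from FBS-1 and FBS-2. The difference of sample 1 and sample 2 correlated across 163 miRNAs at r = 0.502 for the pair of FBS with UC-dFBS, 0.176 for FBS with UF-dFBS and 0.0234 for both depleted media, against -0.229, -0.218 and 0.0191 for these media with SBI-dFBS. miRNAs are not independent replicates.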

Additional observations from a re-analysis of the deposited data

Results flagged for a closer look

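StemPRO, which has 1 sample and enters no tested comparison, held 68 counts of hsa-miR-126-3p and 7 counts of hsa-miR-126-5p, both above the limit of 3 counts that a count of 0 allows. Both miRNAs are listed here because the signal lies in a sample outside the comparisons and above that limit. On the spike-in scale the level of hsa-miR-126-3p in StemPRO, 0.629, was above the floor of 0.0278 of that library. Their source was not tested.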

How the results depend on the processing

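The changes of the 4 miRNAs were recomputed under other settings with no single sample left out. Of these, 165 kept their direction and call, 16 kept the direction and lost the call, 6 gained a call and 13 changed sign. Leaving out 1 sample gave 241, 28, 5 and 6 in the same order. Some of the 13 also lost their call, so more than 16 calls were lost. The changes against FBS by DESeq2 with its own size factors were counted under both the spike-in and the relative comparisons. The setting that mattered most was the scaling, since TMM and DESeq2's own size factors set most miRNAs to no change by construction. With TMM the spike-in calls over all miRNAs were 10 (SBI-dFBS), 0 (UC-dFBS) and 22 (UF-dFBS) against FBS, and 15 for UF-dFBS against UC-dFBS, and 0 of the 4 were lower in UC-dFBS. With DESeq2's own factors they were 10, 2, 25 and 15, with 0 of the 4 in UC-dFBS, and 11 for UC-dFBS against SBI-dFBS (12 with spike-in size factors). For this comparison TMM called hsa-miR-126-3p (1.60) and hsa-miR-143-3p (2.02), as did DESeq2's own factors (1.70 and 2.12), which the spike-in factors did not. The change of hsa-miR-145-5p turned to 0.68 and 0.57 (TMM and DESeq2) for SBI-dFBS, 0.87 and 0.86 after ultracentrifugation, 4.23 and 3.91 after ultrafiltration, 0.18 and 0.28 for UC-dFBS minus SBI-dFBS, and 3.37 and 3.06 for UF-dFBS minus UC-dFBS, and that of hsa-miR-143-3p to 0.10 and 0.10 in UC-dFBS. DESeq2 with spike-in size factors left hsa-miR-145-5p in UC-dFBS without a call (adjusted p = 0.102). A filter of 50 counts left 91 calls in UC-dFBS, and for UF-dFBS 95 against FBS and 95 against UC-dFBS, as fewer miRNAs were tested, no filter gave 277 in UF-dFBS, and a fit of UF-dFBS and UC-dFBS alone gave 87.

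Relative to the other miRNAs, total miRNA counts gave 16 calls for SBI-dFBS and 1 for UC-dFBS, with hsa-miR-143-3p at -0.25 in UC-dFBS. Without hsa-miR-122-5p in the total, SBI-dFBS had 20 calls and 1 of the 4 lower, and DESeq2 gave 2 calls in UC-dFBS. The serum as a replicate block gave 11 calls for UC-dFBS and 34 for UF-dFBS, and it changed no call of the 4. On the spike-in scale hsa-miR-126-3p in UF-dFBS was -13.01 with the block. For Sigma minus Gibco hsa-miR-126-5p lost its call under each of the following settings, and the calls over all miRNAs were 13 with TMM, 14 and 8 with DESeq2 (spike-in and own factors, the latter with 1 of the 4), 24 without a filter, 19 with the stricter filter, and 0 of all and 0 of the 4 without the medium term. On shares of miRNA counts the correlation of hsa-miR-143-3p with hsa-miR-145-5p was -0.503 in place of 0.923. The cause of these moves was not tested, other than where the setting itself gives it.

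With 1 sample left out, 1 to 3 of the 4 stayed lower in SBI-dFBS (8 to 78 of all miRNAs, lowest without SBI-dFBS-1), and 1 to 4 in UC-dFBS (56 to 151, lowest without UC-dFBS-2). For UC-dFBS against SBI-dFBS 5 to 27 were called, and hsa-miR-126-5p ranged from -0.28 to 0.72. Relative to the other miRNAs, 0 to 3 of the 4 were lower in SBI-dFBS (2 to 16 of all, lowest without SBI-dFBS-1), 0 to 4 of all were called in UC-dFBS, where hsa-miR-143-3p ranged from -0.42 to 0.45, and 8 to 25 in UF-dFBS, lowest without UF-dFBS-1. For the sera 0 to 4 of the 4 and 0 to 59 of all were higher or called, with 0 without FBS-1. UF-dFBS limits the depth, since 4 counts of hsa-miR-126-3p and 1 each of hsa-miR-143-3p and hsa-miR-145-5p stand behind the values of UF-dFBS-2.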
